A study of Mus musculus with 38 samples.

Results

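The 18 arrays of the 3 Kal-1 arms, of 38 arrays in all, were used to compare brown adipose tissue late in treatment with brown adipose tissue early in treatment. The late set holds the 9 arrays of Weeks 12, 15 and 18, and the early set holds the 9 arrays of Weeks 3, 6 and 9, with the dose group kept as a block in the fit. C57BL/6J mice, weaned at 3 to 4 weeks of age, received a high fat high sucrose diet with 60% of the calories from fat. In the arms HF5, HF20 and HF75 the diet was combined with 5, 20 or 75 µg of Kal-1, an ethnobotanical formulation. The same weeks of the high fat diet alone (HFC, 6 arrays) and of a control diet with 10% of the calories from fat (LFC, 6 arrays) were used for comparison. All animals of the Kal-1 arms and of HFC shared the high fat diet, so no Kal-1 arm was fed the control diet. The labels describe 30 animals per group, of which 5 were killed every 3 weeks, and the series text speaks of 3 biological replicates, but 1 array per group and week is listed and the number of animals behind each is not given. The weeks of a period therefore serve as its replicates, and the age of the animals moves with the week. Each p value of the fit rests on the spread between arrays that remains once dose group and period are fitted. The 3 doses of a week count there as separate arrays, although they share the week and the age.

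Brown fat is a thermogenic tissue in which uncoupling protein 1, encoded by Ucp1, lets the mitochondrial proton gradient run down as heat. The tissue also holds endothelial cells, fibroblasts, macrophages and lymphocytes, and neighbouring skeletal muscle can be taken along at dissection. In such bulk RNA, fewer cells of a type and less RNA per cell cannot be told apart. Genes of T, B and cytotoxic lymphocytes therefore report on the immune cells of the depot, and interferon-induced genes report on the antiviral response that most cell types can mount.

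The values are log2 signals relative to the 75th percentile of the array. That percentile ran from 35.1 to 871 intensity units in the early arrays and from 35.8 to 728 in the late arrays, and late minus early was -0.31 on the log2 scale (exact permutation test within dose, two-sided, p = 0.681). Probes well above background made up 36.6% to 70.8% of an array. The HF75 array of Week 3 went against its tissue label. Its Ucp1 level was -3.08, against 5.26 to 8.57 on the other 17 Kal-1 arrays, and Cidea, a lipid droplet protein of brown adipocytes, was at -1.78 against 5.81 to 8.77. On that array the means of the collagen and macrophage genes were the highest of the early set, at 3.14 and 1.85. Most list members whose unadjusted p crosses 0.05 when it is left out are named beside their list.

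No gene passed an adjusted p of 0.05 between the late and the early Kal-1 arrays (limma, 0 of 21809 genes, 0%), with 0.516 as the lowest adjusted p. In all 1512 genes had an unadjusted p under 0.05, of which 949 were higher late (4.35%) and 563 were lower late (2.58%). Without the HF75 array of Week 3 the adjusted count was again 0, with 1672 genes at an unadjusted p under 0.05 and a smallest adjusted p of 0.365. The median change of all genes was 0.11, and 0.07 without that array. Quantile normalization called 3 genes, and leaving out Week 12 called 1 gene, Gm7776 (adjusted p = 0.0265). The differences below are accordingly values that did not pass the adjusted threshold, read against the shares above.

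The lowest median among the gene lists was that of the lymphocyte genes. Of the 20 tested, 14 were lower late at an unadjusted p under 0.05 and 0 were higher, where 2.58% of all genes were lower, and 18 of the 20 changes were below 0. Their median change was -1.71, against 0.11 over all genes tested, and -1.67 without the HF75 array of Week 3. The list covered cytotoxic, T cell and B cell genes, and members of each kind were among the 14.

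Nkg7, a granule protein of natural killer cells and cytotoxic T cells, had early levels of -2.28 (lowest), -0.10 (median) and 1.90 (highest) and late levels of -3.84, -2.65 and -1.27. Late minus early was -2.41 ± 0.47 (SE, 9 against 9 arrays, adjusted p = 0.516). The periods overlapped only in part, since the late median lay below every early array. Gzma, a granule protease, stood at -3.77, -1.03 and -0.08 (lowest, median, highest) early and at -6.18, -4.11 and -1.64 late, a difference of -2.71 ± 0.62. It was well above background on 9 early and 4 late arrays. Gzmb, a second granzyme, had a difference of -2.37 ± 0.63. Ccl5, a chemokine secreted by cytotoxic cells, was not in the lymphocyte list and had a difference of -2.28 ± 0.48 (adjusted p = 0.516).

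Among T cell genes, Cd2, an adhesion receptor, had early levels of -4.23, -3.15 and -0.61 (lowest, median, highest) and late levels of -5.87, -5.25 and -3.33. Its change was -2.12 ± 0.45, and it was well above background on 8 early arrays and 1 late array. Prf1, the pore-forming perforin, was above background on 4 early and 0 late arrays. Its early mean stood 1.25-fold over the mean background floor of the late arrays. The receptor subunits Cd3d and Cd3g had differences of -1.85 ± 0.51 and -1.73 ± 0.55, and the kinase Lck one of -1.71 ± 0.44. Members that did not reach an unadjusted p under 0.05 were Cd8a (-0.96 ± 0.49), Cd8b1 (-0.65 ± 0.84), Klrb1c (-0.34 ± 0.52), Cd3e (-0.25 ± 0.65), Cd4 (0.63 ± 0.42) and Cd79a (0.04 ± 0.65).

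Among B cell genes, Cd79b, a signalling chain of the B cell receptor, had early levels of -2.83, -0.74 and 0.34 (lowest, median, highest) and late levels of -3.84, -2.71 and -1.24, a change of -1.86 ± 0.41 (adjusted p = 0.516). Ms4a1, which encodes the B cell antigen CD20, had a difference of -1.72 ± 0.68. P2ry10, a lysophospholipid receptor gene expressed in lymphocytes, was not in the list and had a change of -2.52 ± 0.53. It too was picked for one of the 10 smallest p values among the genes lower late, and is no separate evidence.

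The depth of signal set how far the lymphocyte values can be read. The list's probes were well above background in 75% of early readings and in 46.1% of late readings. With signals raised to the background floor of each array the median change was -0.89 and 8 members stayed lower at an unadjusted p under 0.05, among them Nkg7 (-2.18), Gzma (-2.11) and Cd79b (-1.52). Cd2 (-0.81), Cd3g (-0.73) and Prf1 (-0.73) did not. No member was well above background on all 18 arrays (0 of 20). With normexp background correction, which draws dim signals together, the median was -0.45 and 2 members did so. Leaving out any 1 array gave 13 to 15 members.

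**Figure D1:**
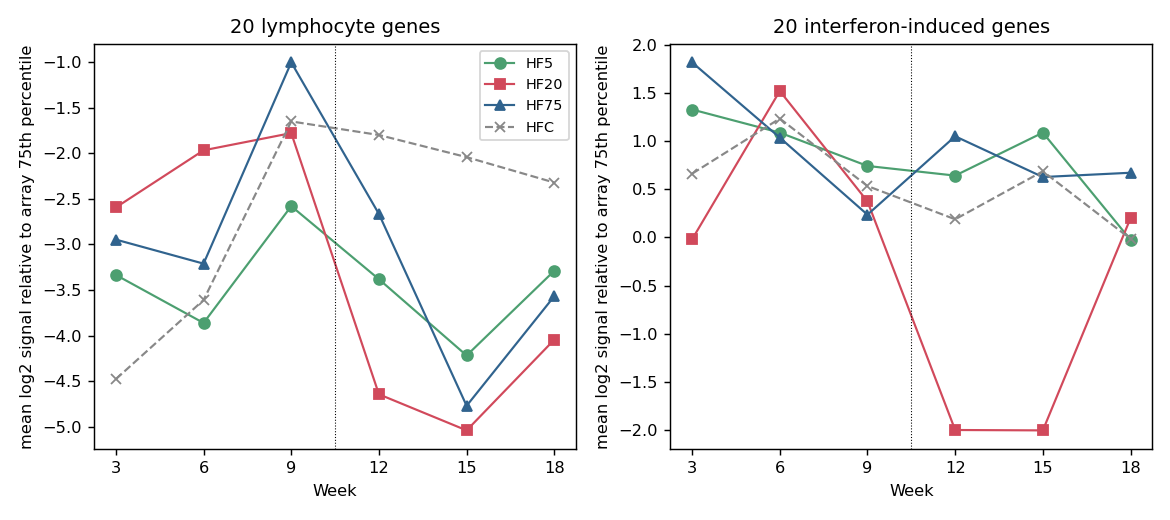
Mean log2 signal relative to the array 75th percentile (vertical axis) of the 20 lymphocyte genes (left) and the 20 interferon-induced genes (right) at each week (horizontal axis), 1 point per array, with a dotted line between the early and the late weeks. The lymphocyte mean of HF20 lay between -2.59 and -1.78 early and between -5.04 and -4.05 late, and the interferon mean of HF20 was near -2.0 at Weeks 12 and 15.

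The lymphocyte medians of the doses were unequal as measured. The median was -0.40 in HF5, -2.47 in HF20 and -1.41 in HF75, with 12, 20 and 16 of the 20 members below 0. In HF20 every late list mean was below every early one. In HF5 the early means of -3.34, -3.86 and -2.58 overlapped the late means of -3.38, -4.22 and -3.29. In HF75 the highest late mean, -2.67 at Week 12, was above the early means of Weeks 3 and 6. No gene passed the test of a dose by period difference (limma moderated F test, 0%), with 568 genes at an unadjusted p under 0.05, so the doses were not shown to differ. No gene passed within HF5, HF20 or HF75 alone (0% each).

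On the high fat diet without Kal-1 the same genes had a median change of 1.16, with 4 of 20 higher at an unadjusted p under 0.05 and 0 lower, where 16% of all genes were higher and 4.49% lower. In HFC 1 gene passed (0.00459%), 1700015F17Rik, with a change of 2.81 ± 0.41 (adjusted p = 0.0113). On the control diet the lymphocyte median was -0.05 with 0 members in either direction, where 1.22% of all genes were higher and 0.894% lower and no gene passed (0%). The change in the Kal-1 arms minus the change in HFC had a median of -2.66 over the list, and 13 of 20 members were lower in the Kal-1 arms at an unadjusted p under 0.05, against 10.1% of all genes lower and 3.36% higher. For Nkg7 that difference was -3.18 ± 0.92 and for Cd79b it was -2.11 ± 0.75. The count of 13 became 6 with quantile normalization, 1 with normexp and 6 without Week 15. No gene passed that test after adjustment (limma, 0%, 2940 genes at an unadjusted p under 0.05, smallest adjusted p = 0.323). The HFC side rests on 3 arrays against 3, and its list means were -4.48, -3.61 and -1.65 at Weeks 3, 6 and 9 and -1.80, -2.04 and -2.32 at Weeks 12, 15 and 18.

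**Figure D2:**
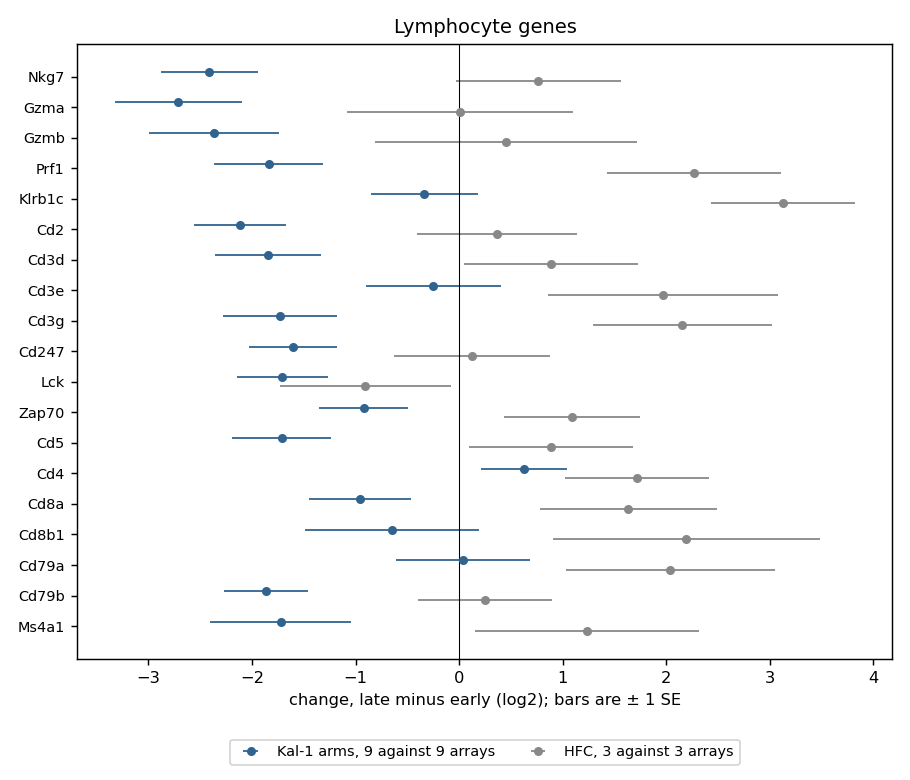
Change from early to late weeks (log2, horizontal axis) of 19 of the 20 lymphocyte genes in the Kal-1 arms and in HFC, with bars of 1 SE. In the Kal-1 arms 17 of the 19 points lie below 0, and the medians of all 20 are -1.71 in the Kal-1 arms and 1.16 in HFC.

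Fewer macrophage and matrix genes were lower late, and in HF5 most members of both lists had a difference above 0. With all 18 arrays, 2.58% of all genes were lower at an unadjusted p under 0.05 and 4.35% higher, and the counts here are read against these shares. Of 20 macrophage genes, 4 were lower at that level and 0 higher, with a median of -0.38. Without the HF75 array of Week 3 there were 3, since Cd86 was lost, with a median of -0.20. With signals raised to the floor there were 2, Tnf and Ptprc, and among the dim arrays alone the median was 0.38. The 4 were Tnf, an inflammatory cytokine (-1.84 ± 0.62), Itgax, an integrin of dendritic cells and activated macrophages (-1.47 ± 0.55), Ptprc, the surface antigen CD45 of all white blood cells (-1.03 ± 0.40), and Cd86, a costimulatory ligand. The macrophage median was 0.67 in HF5, with 2 of 20 members below 0, beside -1.14 in HF20 and -0.48 in HF75. The macrophage defining genes Adgre1 (-0.50 ± 0.43) and Cd68 (-0.49 ± 0.34) did not reach that level. Of 20 collagen and matrix genes, 3 were lower, with a median of -0.50, and without the HF75 array of Week 3 there were 2 lower, since Bgn was lost, and 1 higher, the proteoglycan gene Lum (0.81), with a median of -0.34. The matrix median was 0.51 in HF5, with 4 of 20 members below 0, beside -0.83 in HF20 and -0.90 in HF75. Col4a2, a chain of basement membrane collagen, had early levels of 2.49, 3.59 and 5.32 (lowest, median, highest) and late levels of 1.66, 2.27 and 3.80, a change of -1.05 ± 0.34. Fbn1, the microfibril protein fibrillin, had a difference of -1.05 ± 0.39 and the proteoglycan gene Bgn one of -0.70 ± 0.32. Col1a1 had a difference of -0.70 ± 0.48. Of 22 cell cycle genes, Ccna2 (-0.87 ± 0.39) and Aurka (-0.77 ± 0.35) were lower at that level, and Mki67, a proliferation marker, had a difference of -0.04 ± 0.55. Both calls were lost without the HF75 array of Week 3, where Mcm5 (-0.72) was lower and Tyms (0.67) higher, and 0 members remained with signals raised to the floor. In HF5 the cell cycle median was 0.33, with 5 of 22 members below 0.

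Interferon-induced genes were the second group with a low median. All 20 members had a change below 0, 10 of them at an unadjusted p under 0.05, and the median was -0.88, or -0.80 without the HF75 array of Week 3, where the count was again 10 and Ifit1 was no longer among them. The doses of a week share the week and the age of the animals, and with week as a random block the count was 5. Signal was not limiting here, since 97.8% of early and 95% of late readings were well above background. Irf7, the transcription factor that amplifies the interferon response, had early levels of -1.30, -0.87 and 1.49 (lowest, median, highest) and late levels of -3.43, -2.04 and -1.09, a change of -1.57 ± 0.42 (adjusted p = 0.634). Ifi47, an interferon-induced GTPase, stood at -0.04, 0.86 and 2.15 early and at -2.19, 0.02 and 1.07 late, a change of -1.23 ± 0.41. Oas1a, which makes the 2-5 oligoadenylate signal that activates ribonuclease L, stood at -0.47, 0.53 and 1.07 early and at -2.51, -0.20 and 0.64 late, a change of -1.01 ± 0.35. In all 3 genes the lowest late array lay below the lowest early array, and the ranges overlapped.

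The count of interferon members depended on single arrays of the HF20 arm. The median change was -0.59 in HF5, -1.95 in HF20 and -0.11 in HF75, with 18, 20 and 13 of the 20 members below 0. The list mean was -2.0 on the HF20 arrays of Weeks 12 and 15, and between -0.02 and 1.09 on the other 7 late arrays. Without either one of those arrays 4 members remained at an unadjusted p under 0.05, and without the HF20 array of Week 6 there were also 4. Both low arrays, with those of HF20 at Weeks 3 and 6 and HF75 at Week 3, were among the 5 bright Kal-1 arrays (75th percentile over 600), and among the dim arrays alone 1 member was lower and the median was -0.32. A fit that also carried the brightness class gave 11 members lower and a median of -0.92. The part of brightness in the result was not tested. HFC showed a median of -0.69 over the same list with 1 member lower, where 4.49% of all genes were lower. LFC showed a median of -0.01. The difference between the Kal-1 arms and HFC had 0 members at an unadjusted p under 0.05 in either direction. Of all genes, 10.1% were lower and 3.36% higher in that difference.

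To show what these genes share in sequence, the 250 bases before the start of 3 interferon-induced genes are given, those with the smallest p among the members that hold the motif. They are from RefSeq (GRCm38.p6), 5′ to 3′ on the strand of the gene, and capitals mark matches to GAAANNGAA, the core of the element bound by interferon-activated factors, searched on both strands. They lie on the minus strand at chr5:120907526-120907775 (Oas1a), chr4:156200819-156201068 (Isg15, an interferon-induced ubiquitin-like protein) and chr11:48871421-48871670 (Irgm1, an immunity-related GTPase).
Oas1a: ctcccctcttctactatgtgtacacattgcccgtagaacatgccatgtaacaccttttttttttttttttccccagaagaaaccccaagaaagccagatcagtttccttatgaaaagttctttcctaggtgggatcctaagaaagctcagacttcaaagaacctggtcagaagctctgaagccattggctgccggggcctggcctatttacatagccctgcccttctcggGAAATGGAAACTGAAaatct
Isg15: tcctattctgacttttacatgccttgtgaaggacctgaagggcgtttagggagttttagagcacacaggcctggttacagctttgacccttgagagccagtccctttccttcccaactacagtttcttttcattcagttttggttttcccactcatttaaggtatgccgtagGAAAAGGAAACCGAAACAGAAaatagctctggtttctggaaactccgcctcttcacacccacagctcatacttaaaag
Irgm1: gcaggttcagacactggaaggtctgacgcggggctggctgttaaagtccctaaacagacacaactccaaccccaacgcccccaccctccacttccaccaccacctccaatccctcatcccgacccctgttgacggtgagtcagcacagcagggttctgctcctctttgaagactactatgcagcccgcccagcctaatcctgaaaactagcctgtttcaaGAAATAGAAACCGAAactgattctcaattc
In each of the 3 the matches overlap one another. Of the 15 list members with a promoter in the table, 9 held the motif (60%), against 8.18% of all 27025 genes. Irf7 and Ifi47, which had the 2 smallest p values of the list, did not hold these letters in the window. A match is a description of the sequence. Isg15 had a difference of -1.06 ± 0.43 and Irgm1 one of -0.86 ± 0.35.

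The median change of the thermogenic genes, and their calls at an unadjusted p under 0.05, depended on the HF75 array of Week 3. With it, their median change was 0.60, and Ppargc1a, a coactivator of mitochondrial biogenesis (1.25 ± 0.52), and Elovl3, a fatty acid elongase of active brown fat (2.58 ± 1.15), were higher at an unadjusted p under 0.05, 2 of 20 members against 4.35% of all genes. Without it the median was 0.09 and 0 of 20 members reached that level. Ppargc1a was then at 1.06 and Elovl3 at 1.94 (limma, unadjusted p = 0.060 and 0.086). With all 18 arrays the HF5, HF20 and HF75 changes were 0.95, 1.03 and 1.76 for Ppargc1a. Those of Elovl3 were 0.06, 4.19 and 3.49. Ucp1 had a difference of 0.63 ± 1.04 with the HF75 array of Week 3 and one of -0.42 without it. Cidea had differences of 0.99 ± 0.93 and 0.06. In HF75 alone the differences of 2.62 for Ucp1 and 3.08 for Cidea rested on the same array, beside -0.31 and 0.01 in HF5. The Ucp1 and Cidea probes were saturated on 4 of the 18 arrays, those of HF20 at Weeks 3, 6, 12 and 15. Their levels there are lower limits, and no HF20 difference is given for either. Elovl3 stood at -8.32 on the HF75 array and at -7.63 on the HF20 array of Week 3, and between -2.0 and 2.63 on the late arrays. Dio2, the deiodinase that activates thyroid hormone in brown fat, had a difference of 1.22 ± 0.76.

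**Figure D3:**
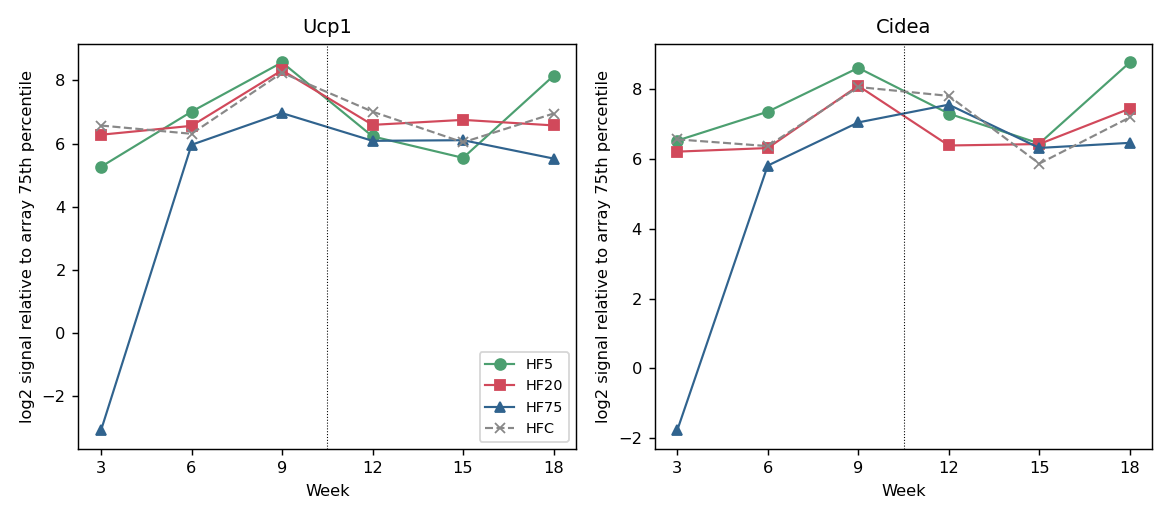
Log2 signal of Ucp1 (left) and Cidea (right) relative to the array 75th percentile at each week, 1 point per array and group. The HF75 array of Week 3 stands at -3.08 and -1.78, the other Kal-1 arrays lie above 5 on both axes, and the HF20 points of Weeks 3, 6, 12 and 15 are saturated signals.

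Many metabolic genes had probes that were saturated on some arrays, among them 17 of 20 respiratory chain genes, 12 of 20 fatty acid oxidation genes, 11 of 14 citric acid cycle genes, 9 of 18 glucose genes and 5 of 19 lipogenic genes, which limits how far their differences can be read. None of the genes for fatty acid oxidation (median 0.12), the respiratory chain (0.10), the citric acid cycle (0.11), glucose use (0.24) or lipogenesis (-0.02) reached an unadjusted p under 0.05. Without the HF75 array of Week 3 these medians were -0.10, -0.09, -0.11, 0.09 and -0.13, again with 0 members at that level. Fasn, the fatty acid synthase, had a difference of -0.41 ± 0.39, Scd1, the stearoyl-CoA desaturase, one of -0.02 ± 0.49, and the adipokine genes Adipoq and Lep differences of 0.06 ± 0.46 and -0.33 ± 0.79. The probes of Fasn and Adipoq were saturated on 4 arrays and that of Scd1 on 2. Of the 14 white fat genes, 0 reached an unadjusted p under 0.05, and without the HF75 array of Week 3 Slc7a10 (1.35) did. The cholesterol synthesis gene Ebp (0.42 ± 0.20) and the lipid droplet coat gene Plin3 (0.58 ± 0.27) were the single members of their lists at that level, both higher late. Among chaperones, Hsp90aa1 (0.88 ± 0.34) and Hspe1 (0.70 ± 0.28) were higher, 2 of 15 tested, and Hspe1 was lost without the HF75 array of Week 3. Of all genes, 4.35% were higher late at that level.

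Skeletal muscle genes had the highest list median, 1.30, although 0 of 22 reached an unadjusted p under 0.05. Acta1, the actin of skeletal muscle, ranged from -2.94 to 6.07 early and from -0.32 to 6.27 late, a change of 1.17 ± 1.08. Its level was above 6 on 3 arrays, those of HF20 at Weeks 3 and 15 and of HF75 at Week 12. Without these 3 arrays, a choice made after seeing the data, 13 lymphocyte genes and 9 interferon-induced genes were lower late at an unadjusted p under 0.05, with medians of -1.67 and -0.82, and the muscle median was 0.72. Red cell genes (median 0.10) and endothelial genes (0.05) had 0 members at that level, and their medians were -0.32 and -0.08 without the HF75 array of Week 3. The male-specific gene Ddx3y was well above background on every Kal-1 array and had a difference of 0.05 ± 0.28.

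Among clock genes, members of the repressor arm had differences of opposite sign. Nr1d1, which encodes the nuclear receptor REV-ERB alpha, had early levels of -0.29, 0.56 and 0.996 (lowest, median, highest) and late levels of -1.45, -0.80 and 0.69, a change of -1.13 ± 0.31 (adjusted p = 0.634). It was above background on all arrays, and its change was -0.96, -0.83 and -1.59 in HF5, HF20 and HF75, beside -0.77 in HFC and -0.24 in LFC. The period genes Per1 and Per2 had differences of -0.52 ± 0.21 and 0.88 ± 0.41. The activator gene Arntl (-0.71 ± 0.57) and the output gene Dbp (-0.02 ± 0.47) did not reach an unadjusted p under 0.05. Of the 19 clock genes 2 were lower and 1 higher, where 2.58% of all genes were lower and 4.35% higher. Their median change was 0.00. Without the HF75 array of Week 3, Clock (0.58) took the place of Per2 as the one gene higher.

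**Figure D4:**
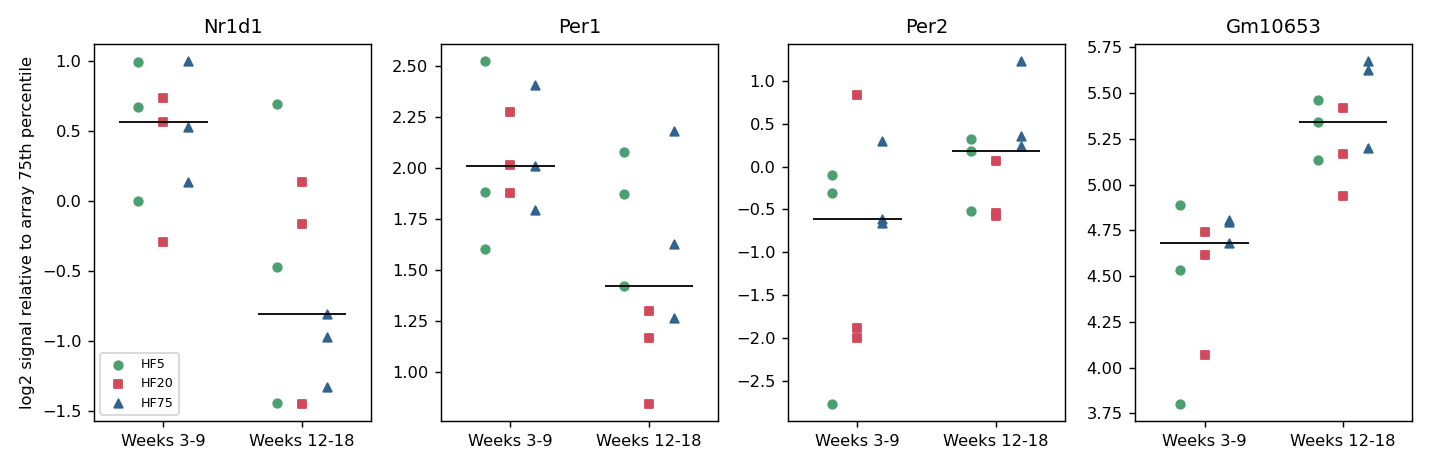
Log2 signal of Nr1d1, Per1, Per2 and the predicted gene Gm10653 relative to the array 75th percentile in the early and late Kal-1 arrays, 1 point per array with the median of each period as a line. For Nr1d1 the medians are 0.56 and -0.80, and for Gm10653 no late array falls within the early range.

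The 10 names with the smallest p among those higher late were mostly predicted genes, and they stood for 7 distinct probe sequences. The probes of Gm12091, Gm8520 and LOC100048354 are identical over all 60 bases, as are those of Gm5058 and Gm5329, so their values measure the same targets and cannot be assigned to a single name. Those of Gm10653 and Gm12176 share runs of 59 and 58 bases with the first set. To show how close they are, 30 bases of the probes are given as in the array file, 5′ to 3′, with capitals in Gm7638 at the 5 positions where it differs from the shared stretch.
Gm12091, Gm8520, LOC100048354, Gm10653 and Gm12176: cagctgtggctactacataaggattttgta
Gm7638: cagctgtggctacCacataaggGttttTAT
Gm5058 and Gm5329: tgtgtttacttagctcctgattgtgaggct
Only 2 of the 21809 names had late and early arrays that did not overlap (0.00917%). Both are among the 10 names, which were picked by p in this same comparison. The longest run that the probes of Gm10653 and Gm7638 share is 13 bases. Gm10653 ran from 3.80 through a median of 4.68 to 4.89 early and from 4.94 through 5.35 to 5.67 late, a change of 0.78 ± 0.18 (adjusted p = 0.516). Gm7638 ran from 5.31 through 5.82 to 6.23 early and from 6.25 through 6.40 to 6.73 late, a change of 0.70 ± 0.17. In HFC their differences were -0.20 and -0.25. Gm12091 had a difference of 1.18 ± 0.26, and Gm5058 one of 1.64 ± 0.38. The array file describes Gm12091 as similar to a ribosomal protein. It gives other descriptions to Gm8520 and LOC100048354, which have the identical probe. The non-coding RNA 4932413F04Rik had the smallest p of the names higher late, with a change of 1.33 ± 0.28, and LOC100047346 had a difference of 0.90 ± 0.22. In the separate list of ribosomal protein genes, 1 of 24 was higher, where 4.35% of all genes were. That was Rpl27 (0.52 ± 0.24), which was lost without the HF75 array of Week 3. The median change of that list was 0.19. Among all names tested, 1014 had a probe sequence that another tested name also had. The 949 names higher late at an unadjusted p under 0.05 came from 912 sequences and the 563 lower from 560.

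Other names with a small p among those lower late were Acsbg1, a long-chain acyl-CoA synthetase (-1.21 ± 0.24), Pde10a, a cyclic nucleotide phosphodiesterase (-1.31 ± 0.29), and Gm7776 (-1.86 ± 0.42). Acsbg1 ran from -2.73 through -2.18 to -1.36 early and from -4.18 through -3.45 to -2.46 late, and was above background on 9 early and 4 late arrays. In HFC it had a difference of 1.21.

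**Figure D5:**
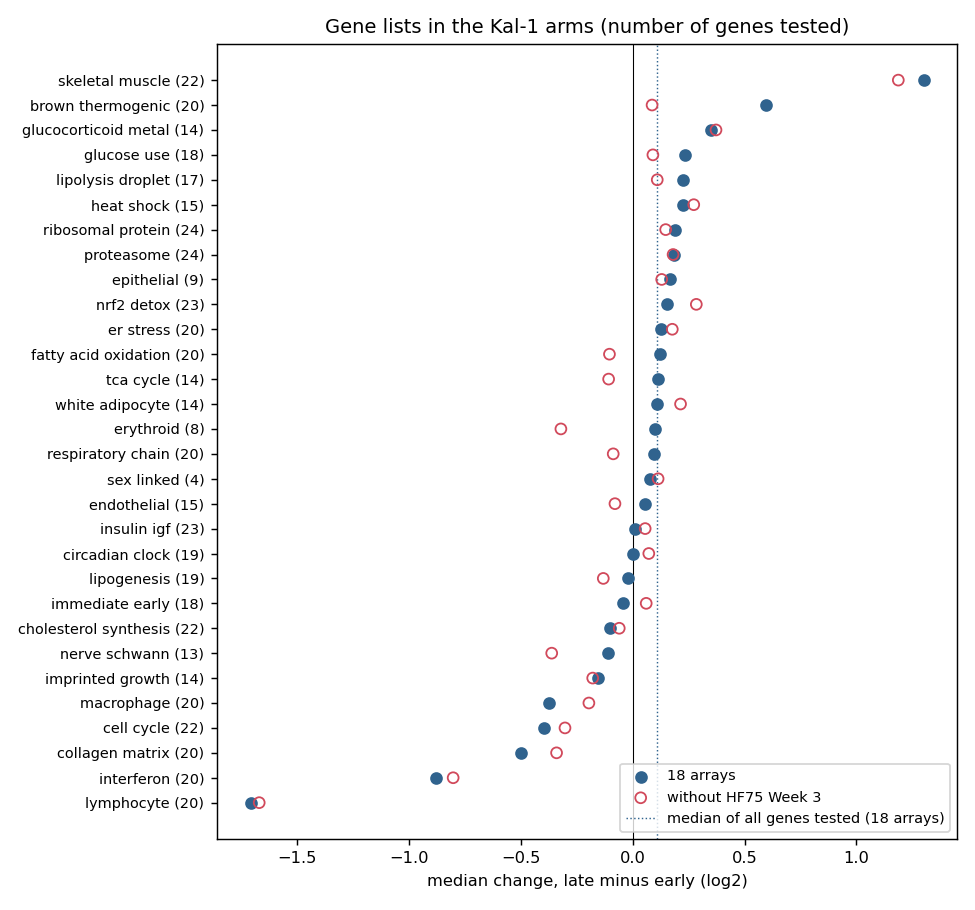
Median change from early to late weeks (log2, horizontal axis) of the 30 gene lists in the Kal-1 arms, with all 18 arrays (filled) and without the HF75 array of Week 3 (open), beside the median of all genes (dotted line at 0.11). The lymphocyte list (-1.71) and the interferon list (-0.88) are lowest, the muscle list (1.30) is highest, and the thermogenic list moves from 0.60 to 0.09.

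The other lists had medians between -0.16 and 0.35. At an unadjusted p under 0.05 they held Cyp2b10 (1.45 ± 0.60) and Sod1 (0.45 ± 0.20) among antioxidant and detoxification genes and Lor (0.80 ± 0.30) among epithelial genes, all higher late, and Per1 among glucocorticoid and metal response genes and Gsk3b (-0.78 ± 0.34) among insulin signalling genes, both lower late. Of all genes, 4.35% were higher and 2.58% lower at that level. With signals raised to the floor Gsk3b (-0.26), Lor (0.67) and Cyp2b10 (1.06) no longer reached it. Without the HF75 array of Week 3 Cyp2b10 and Sod1 were lost, while Gsta1 (1.59), Mt2 (1.46) and Zbtb16 (1.43) were higher, and Gnas (-0.79) among imprinted genes and Sox10 (-0.72) among nerve genes were lower. With all 18 arrays, imprinted growth genes (Mest -0.61 ± 0.43), immediate early genes, endoplasmic reticulum stress genes and proteasome genes had 0 members at that level.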

How the data were processed

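Per the labels, total RNA of brown adipose tissue was labelled with Cy3 and hybridised to 1-colour Agilent arrays. The deposited scanner files hold spot intensity values made by the authors with Feature Extraction, whose processed signal has the background removed and is not yet scaled from array to array. A deposited file of the authors' own fold changes against LFC was not used. The Week 9 files of HFC and of the 3 Kal-1 arms hold values rounded to 3 significant digits.

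Here log2 processed signal minus the 75th percentile of the array was used. Spots of a probe were averaged after outlier flags were removed (117 values missing over the 18 arrays). Probes were named through RefSeq annotation of GRCm38.p6, which matched 81.5% of 40628 probes. Each of 29353 gene names was represented by its brightest probe on average, and the 21809 names whose probe exceeded background clearly in 6 or more of the 38 arrays entered the tests. The number of arrays and the signal over background limit the precision.

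Late and early arrays were compared with limma 3.58.1 in R 4.3.3, with the dose group as block. Contrasts within HFC and LFC and their difference from the Kal-1 arms used the 30 arrays of Weeks 3 to 18. The p values are two-sided, adjusted after Benjamini and Hochberg, with a threshold of 0.05. All adjusted p values are from limma. Errors after ± are standard errors of the fit. The fit was tested on simulated data. For a gene not well above background on any array of a period, the mean of the other period is given as a fold over the mean background floor. The 30 lists, the members and the rule for named genes were chosen with earlier results of these data known. The named genes are the 10 with the smallest p in each direction, the 3 with the smallest p of each list and the defining genes of cell types and pathways. Other list members are given where their list is described. The white fat marker first listed as Asc1 was read as Slc7a10. Xist was not tested because its signal was too low. Some of the named genes and list members are not reported here, and the counts and medians include them.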

Additional observations from a re-analysis of the deposited data

Results flagged for a closer look

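The 62 sets of 9 array values tested for a sample far from the others come from the same arrays and are not independent. Chance gives about 1 in 20 for a single set, and the count over all sets was not tested against that rate. Among the 62 sets, 7 had such a sample. 3 of these concerned the HF75 array of Week 3, whose mean over the thermogenic genes was -2.22 (next lowest early array 0.71), over the collagen genes 3.14 (next highest 1.74) and over the macrophage genes 1.85 (next highest 0.30). The skeletal muscle mean of the HF20 array of Week 3 was 3.49, with the next highest early array at -0.63. The imprinted growth genes had a mean of -0.56 on the HF20 array of Week 6 and of -0.91 on that of Week 12, where the next lowest arrays of those periods stood at -0.00057 and -0.21. The sex-linked genes had a mean of -0.33 on the HF20 array of Week 15, and the next highest late array was at -0.99.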

How the results depend on the processing

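The count of 0 genes after adjustment was also given by the other settings tried for late against early in the Kal-1 arms, except quantile normalization (3) and leaving out Week 12 (1). The 1512 genes at an unadjusted p under 0.05 became 164 with normexp, 857 with week as a random block, 2729 with array weights, 580 with the mean of the 3 doses per week, 989 without the 3 arrays highest in muscle genes, 542 without Week 6 and 3238 without Week 9, and ran from 983 to 2077 when 1 array was left out. The 14 lymphocyte genes became 2 with normexp and 8 with signals raised to the floor, and were 13 to 15 with 1 array left out. The 10 interferon-induced genes became 1 among dim arrays, 5 with week as a random block, 6 without Week 3, 3 without Week 6 and 4 without Week 12, and were 4 to 13 with 1 array left out. The 1 gene in HFC became 2 without the HF75 array of Week 3, 0 with quantile normalization, with normexp and without Weeks 3, 6 or 18, 677 without Week 9 and 411 without Week 15. The 13 lymphocyte genes lower in the Kal-1 arms against HFC became 6 with quantile normalization, 1 with normexp and 6 without Week 15. Week lies within period, so late against early cannot take it as a fixed block. With the week as replicate block, dose by period and the Kal-1 arms against HFC gave 0 genes each, and 16 lymphocyte genes were lower against HFC. The change in array brightness turned to 0.11 without the HF75 array of Week 3. With 1 array left out, the change of Ucp1 ran from -0.42 (without that array) to 1.02, and it was -0.63 among dim arrays and -0.84 without Week 3. Cidea turned to -0.19 without Week 3, and Sod1 to -0.061 with quantile normalization. The cause of these shifts was not tested. The filter for genes well above background on all 18 arrays left 0 lymphocyte genes and so gave no count for them. Dim signals limit the lymphocyte genes and saturated signals the metabolic genes.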
